A study of Drosophila melanogaster with 2 samples.

Results

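The 38 genes whose FlyBase symbol starts with mt: were followed through 2 RNA-seq libraries of Kc167 cells, a Drosophila melanogaster line of embryonic origin. They are 38 of the 17807 genes in the deposited table and make up the whole annotated mitochondrial genome, with 13 protein genes, 2 rRNA genes, 22 tRNA genes and mt:ori, the control region, which carries no gene product and is annotated as a pseudogene. Both libraries are control cells, grown at 25 °C in SFX-Insect medium and exposed to 2% DMSO for 1 h, and are called replicates 1 and 2. With a single condition nothing was compared between treatments, and a difference between the libraries is a difference between these 2 libraries only. The labels do not say whether the RNA came from separate cultures, so the spread between them may be technical.

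Animal mitochondria keep a small circular genome that encodes core subunits of the respiratory chain together with the rRNAs and tRNAs needed to translate them. It is transcribed by a dedicated RNA polymerase into long RNAs from both strands, and tRNAs that lie between the other genes mark many of the places where these RNAs are cut. Most mitochondrial mRNAs then receive a poly(A) tail, which often completes the stop codon. In Drosophila the protein genes are spread over both strands, and all other respiratory chain subunits are encoded in the nucleus, as are the mitochondrial ribosomal proteins.

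In the Ensembl annotation of BDGP6.54, which has dm6 coordinates, the mitochondrial sequence runs from 1 to 19524. The plus strand carries 9 protein genes and 14 tRNA genes, and the minus strand carries 4 protein genes, both rRNA genes and 8 tRNA genes. No member has an intron in this annotation, so the deposited gene length used for TPM (counts per base of gene length, made to add up to the same total in every library) equals the annotated length for 33 members. The 5 others are the tRNAs for Arg, Asn, Thr, Pro and Val. Genes abut or overlap in places. mt:ATPase8 (3907 to 4068, plus strand) shares 7 bases with mt:ATPase6 (4062 to 4736), mt:ATPase6 shares 1 base with mt:CoIII (4736 to 5524), and mt:ND4 (8207 to 9545, minus strand) shares 1 base with mt:ND4L (9545 to 9835). STAR counts a read pair only where it overlaps a single gene on the strand in question, so a pair that crosses such a border is counted on neither gene.

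Replicate 1 had 33436865 counts on genes and replicate 2 had 31721648, in the strand orientation of the kit. The members took 1639685 counts (4.90%, 95% Clopper-Pearson interval from 4.90% to 4.91%) in replicate 1 and 1321902 (4.17%, interval from 4.16% to 4.17%) in replicate 2. Such intervals cover counting error only, since PCR reads without molecular identifiers are not independent molecules. On the length-scaled TPM they took 11.7% of replicate 1 and 10.1% of replicate 2. Of the 38 members, 13 had at least 10 counts in each library, namely 11 protein genes and both rRNA genes. Of all 17807 genes, 8846 did so. The protein genes together took 0.814% and 0.612% of the gene counts. By the paper's methods, poly(A) selection came before these libraries, although the library names read totalRNA. A level here is thus that of RNA kept by this selection, and what part of each RNA was bound was not tested. The haemocyte genes He, Hml and srp stood at 188, 47.0 and 45.8 TPM, while NimC1, Sr-CI and Pxn, listed with them, stood between 1.76 and 4.18, and the eye, nerve and muscle or mesoderm genes ey, elav, Mhc and twi between 0.016 and 1.45.

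mt:lrRNA, the large ribosomal RNA of the mitochondrial ribosome (12735 to 14058, minus strand), had 1367527 counts in replicate 1 and 1127777 in replicate 2. It ranked 1 of all genes by TPM in both libraries, at 93337 and 82099 TPM. It alone held 83.4% of the mitochondrial counts in replicate 1 and 85.3% in replicate 2. mt:srRNA, the small ribosomal RNA (14131 to 14916), lies upstream of it on the same strand with a single tRNA gene between them. It had 82 and 72 counts, or 9.43 and 8.83 TPM, and ranked 6399 and 6471. On the TPM scale, mt:lrRNA thus stood above mt:srRNA by 9900-fold in replicate 1 and 9299-fold in replicate 2. This is a ratio of RNA kept by poly(A) selection and rests on the low counts of mt:srRNA. The amounts of these RNAs in the ribosome were not measured.

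Among the protein genes, the 3 subunits of cytochrome c oxidase, the complex that passes electrons to oxygen, were far above the rest. mt:CoIII had 8552 TPM in replicate 1 and 6589 in replicate 2, from 74671 and 53937 counts. mt:CoI (1474 to 3009, plus strand), which encodes the catalytic subunit, had 7313 and 5420 TPM, from 124304 and 86373 counts. mt:CoII (3083 to 3767, plus strand), which takes up electrons from cytochrome c, had 4728 and 4113 TPM, from 35842 and 29231 counts. The ranges of mt:CoIII and mt:CoI over the 2 libraries overlapped, although mt:CoIII was higher within each library, by 1.17-fold and 1.22-fold. The range of mt:CoII lay below both. These 3 genes held 86.4% ± 0.888 (SD, n = 2) of the summed TPM of the 13 protein genes.

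mt:Cyt-b (10499 to 11635, plus strand), the cytochrome b of complex III, came next with 1508 and 1032 TPM. mt:ATPase6, a subunit of the proton channel of ATP synthase, had 1042 and 721 TPM. Their ranges overlapped, and mt:Cyt-b was 1.45-fold and 1.43-fold above mt:ATPase6 within the libraries. mt:ATPase8, the other mitochondrial subunit of ATP synthase, had 0 counts in replicate 1 and 2 in replicate 2, whereas mt:ATPase6 had 7786 and 5047. With 162 bases mt:ATPase8 is the shortest of the protein genes, and it lies between the tRNA gene for Asp, which it abuts, and mt:ATPase6, which it overlaps. Read pairs that reach past it into either gene were not counted, so its level is not known from these files.

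The 7 subunits of NADH dehydrogenase, the entry complex of the chain, together held 3.50% ± 0.0704 (SD, n = 2) of the summed protein gene TPM, against 4.12% ± 0.315 (SD, n = 2) for the ATP synthase genes, of which mt:ATPase8 is not measured. Of the protein gene counts, which are not scaled to length, they held 3.81% and the ATP synthase genes 2.73%. mt:ND1 (11721 to 12659, minus strand) was the highest, at 376 and 292 TPM. mt:ND5 (6409 to 8125, minus strand) had 185 and 148 TPM and mt:ND4 had 167 and 88.2. mt:ND3 (5608 to 5961, plus strand) had 105 and 79.0 TPM. mt:ND5 and mt:ND4 overlapped in their ranges, as did mt:ND4 and mt:ND3. Within the libraries mt:ND5 was 1.11-fold and 1.67-fold above mt:ND4, and mt:ND4 was 1.59-fold and 1.12-fold above mt:ND3. mt:ND2 (240 to 1263, plus strand) was lower again, at 15.6 TPM in replicate 1 and 23.2 in replicate 2, from 177 and 247 counts. mt:ND6 (9971 to 10495, plus strand) had 22 and 33 counts, or 3.79 and 6.06 TPM, and mt:ND4L had 4 and 8 counts, under the minimum of 10. Pairs that cross from mt:ND4L into mt:ND4, which it overlaps, were not counted. All 15 protein and rRNA genes held the same rank among themselves in both libraries, although the ranks of mt:ND4L and mt:ATPase8 rest on under 10 counts. Among the 11 protein genes that reached 10 counts in each library, the highest, mt:CoIII, exceeded the lowest, mt:ND6, by 2258-fold in replicate 1 and 1088-fold in replicate 2, a range set by the low counts of mt:ND6. With mt:ND2 as the lowest gene, when 100 counts were required in each library, the mean range was 415-fold.

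**Figure D1:**
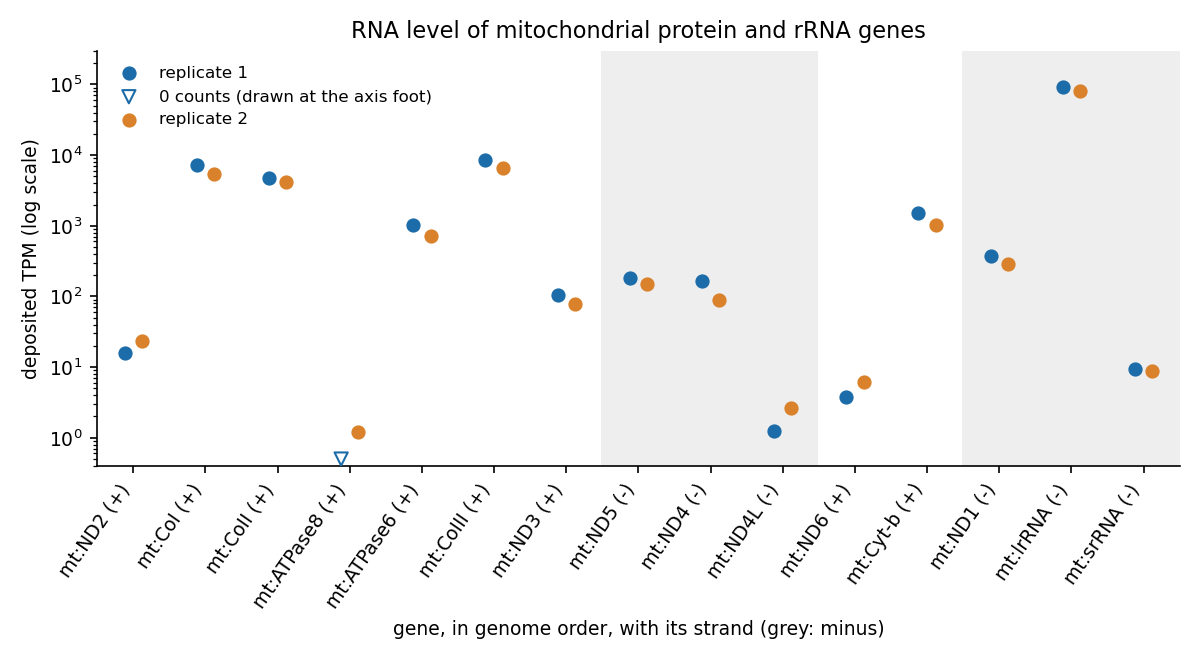
Deposited TPM (log scale) of the 13 protein genes and 2 rRNA genes in genome order, 1 point per library, with minus-strand genes on grey and a count of 0 drawn as an open triangle at the foot of the axis. mt:lrRNA stands at 93337 and 82099 TPM and mt:srRNA, its neighbour, at 9.43 and 8.83, while mt:CoI, mt:CoII and mt:CoIII lead the protein genes.

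Genes that lie side by side on one strand stood at very different levels. In the plus-strand run from mt:CoI to mt:ND3, mt:CoIII exceeded mt:ATPase6 by 8.20-fold and 9.14-fold, although the annotation has them share a base, and exceeded mt:ND3, one tRNA gene further on, by 81.7-fold and 83.4-fold. In the other plus-strand pair, mt:Cyt-b exceeded mt:ND6, which lies just upstream with no tRNA gene between, by 398-fold in replicate 1 and 170-fold in replicate 2. On the minus strand, mt:lrRNA exceeded mt:ND1, which is downstream of it, by 248-fold and 281-fold, and mt:ND4 and mt:ND5, on both sides of the tRNA gene for His, differed by 1.11-fold and 1.67-fold. The median over the 9 plus-strand protein genes was 1042 TPM in replicate 1 and 721 in replicate 2, and over the 4 minus-strand ones 176 and 118. The mean levels of single genes ran from 0.595 to 7571 TPM on the plus strand and from 1.95 to 334 on the minus strand. The low ends are mt:ATPase8, whose level is not known, and mt:ND4L, with under 10 counts. Apart from these, the lowest were mt:ND6 at 4.92 TPM on the plus strand and mt:ND4 at 127 on the minus strand. A very low level was thus measured on the plus strand only. Taking 200 bases off each length, a correction for the start sites a fragment cannot use, took the ratio of plus-strand to minus-strand medians from 6.02 to 8.28. It also leaves out mt:ATPase8, whose level is not known. Leaving out mt:ATPase8 alone, at the deposited lengths, gave 7.34, a setting added once the values were known. Both settings drop a gene from the plus strand only and keep mt:ND4L, which had under 10 counts, on the minus strand. A ratio without both genes was not calculated.

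None of the 22 tRNA genes reached 2 counts in a library. In total they had 1 count in replicate 1 and 3 in replicate 2, spread over mt:tRNA:Trp-TCA, mt:tRNA:Tyr-GTA and mt:tRNA:Ser-TGA, and 19 had 0 counts in both. At their lengths of 61 to 73 bases, 3 counts equal 3.71 to 4.74 TPM. Taken as a limit for a count of 0, this covers only RNA whose fragments could be counted. Of the 22, 13 abut another gene on their strand and 18 have one within 30 bases in the annotation, so a fragment longer than the tRNA would mostly be shared with that neighbour and left uncounted. The 4 others, the tRNAs for Gln, Ile, Pro and Thr, had 0 counts in both libraries too. Mature tRNAs have no poly(A) tail, and their level was not measured by these libraries. mt:ori (14917 to 19524), the control region where replication starts, had 0 counts in replicate 1 and 5 in replicate 2 over its 4608 bases.

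The libraries differed at the mitochondrial genes. After scaling to the total gene counts (CPM), the 2470 counts of replicate 1 at mt:ND4 were 1.91-fold higher than the 1226 of replicate 2 (log2 ratio 0.93, 95% interval from 0.84 to 1.03). mt:Cyt-b, with 18971 and 12169 counts, was 1.48-fold higher (log2 ratio 0.56, interval from 0.53 to 0.60). mt:ATPase6 was 1.46-fold higher, mt:CoI 1.37-fold and mt:CoIII 1.31-fold. mt:lrRNA was 1.15-fold higher, with 40899 and 35552 CPM, and mt:CoII 1.16-fold. Not all members moved this way. mt:ND2, with 5.29 CPM in replicate 1 and 7.79 in replicate 2, was higher in replicate 2 (log2 ratio of replicate 1 over 2 of -0.56, interval from -0.84 to -0.27). At mt:ND6 (-0.66, interval from -1.51 to 0.16) and mt:srRNA (0.11, interval from -0.36 to 0.59) the interval included 0.

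Of the 12 members with at least 100 counts in total, 8 were at least 25% higher in replicate 1, against 0.938% of all 7673 such genes, and 1, mt:ND2, was at least 25% higher in replicate 2, against 1.00%. Raising the minimum to 1000 counts in total, a choice made once the values were known, left 5958 genes, of which 0.117% were at least 25% higher in replicate 1. These are 7 genes, and all 7 are mitochondrial, of 9 members with that many counts. Across the 5949 other genes the log2 ratio ran from -0.28 to 0.31, with the highest at CG12659 (574 and 438 counts), and its 5th and 95th percentiles were -0.09 and 0.09. The median log2 ratio was 0.39 over the 9 members and -0.01 over the other genes. In an exact two-sided binomial test of the counts of the 2 libraries, with Benjamini-Hochberg adjustment over 8846 genes, 10 of 13 members were higher in replicate 1 beyond counting error, against 0.497% of all genes tested, and 1 was higher in replicate 2, against 1.02%. The largest adjusted p among the 11 was 0.0121, at mt:ND3, with 410 and 290 counts. It was 0.00785 at mt:ND2, 0.626 at mt:ND6 and 0.968 at mt:srRNA. The test takes each read pair as independent, which PCR duplicates are not, and it compares these libraries, not conditions. The share of the table taken by mitochondrial RNA also enters the TPM of every other gene. Among other genes with 1000 counts or more, the median of the gene-by-gene TPM ratios of replicate 2 over replicate 1 was 1.02.

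**Figure D2:**
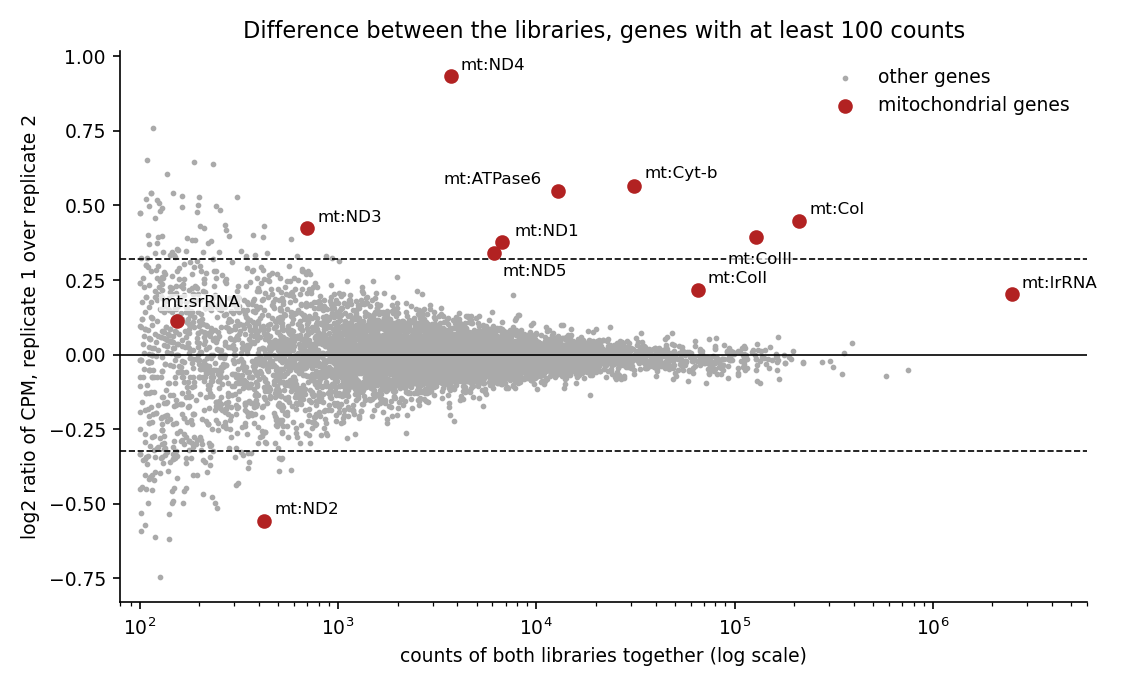
Log2 ratio of CPM, replicate 1 over replicate 2, against the counts of both libraries together (log scale), 1 point per gene with at least 100 counts, dashed lines where either library is 25% higher. The grey cloud of other genes narrows as counts rise, while 8 of the 12 mitochondrial genes lie above the upper line and mt:ND2 below the lower.

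Reads on the opposite strand were few at the abundant members. Over all members there were 19880 opposite-strand pairs in replicate 1 and 13527 in replicate 2, or 1.20% and 1.01% of the pairs on both strands. Over all other genes the share was 3.81% and 3.70%. mt:lrRNA gave most of them, with 17002 and 11760 opposite-strand pairs, a share of 1.23% and 1.03%. Across the 9 members that reached 1000 counts in each library, the share over both libraries ran from 0.752% at mt:CoI to 2.35% at mt:ND4, with a median of 1.36%. Across the 4754 other genes with that many counts the median was 1.18%, with quartiles of 0.840% and 1.93%, and the median of the abundant mitochondrial genes lay between these quartiles. By strand, the share was 1.01% and 0.863% over plus-strand members and 1.23% and 1.04% over minus-strand members, where mt:lrRNA dominates. Without mt:lrRNA the minus-strand share was 1.96% in both libraries, from 199 and 136 opposite-strand pairs.

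At scarce members the share varied. mt:ND2 had 11 and 15 opposite-strand pairs, a share of 5.85% (interval from 2.96% to 10.2%) in replicate 1 and 5.73% (interval from 3.24% to 9.27%) in replicate 2. mt:ND6 had 2 and 3 opposite-strand pairs. mt:ND4L had 6 in each library, as against 4 and 8 on its own strand, a share of 60.0% (interval from 26.2% to 87.8%) and 42.9% (interval from 17.7% to 71.1%). Counts this low carry wide intervals, and of mt:ND2, mt:ND6 and mt:ND4L only mt:ND2 had over 100 strand-matched counts in each library. mt:ND3 had 12 and 2 opposite-strand pairs, a share of 2.84% and 0.685%, and mt:srRNA had 1 and 5, a share of 1.20% and 6.49%. mt:ori had 0 and 2 such pairs, and mt:ATPase8 had 0 in both. At mt:tRNA:Tyr-GTA (1403 to 1468, minus strand), 5 bases upstream of mt:CoI, 13 pairs in replicate 1 and 6 in replicate 2 lay on the plus strand, and 0 and 1 on its own. At mt:CoI, 16 and 10 pairs that were counted with strand in mind were missing from the unstranded count, because they also touched a gene on the other strand. Summed gene by gene over all members, the difference came to 30 and 25. A pair that touches a gene on each strand can enter this sum once per gene, so these are not numbers of distinct pairs. Counted without strand, mt:ND4L had 10 and 14 counts, and 14 members then reached 10 counts in each library.

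**Figure D3:**
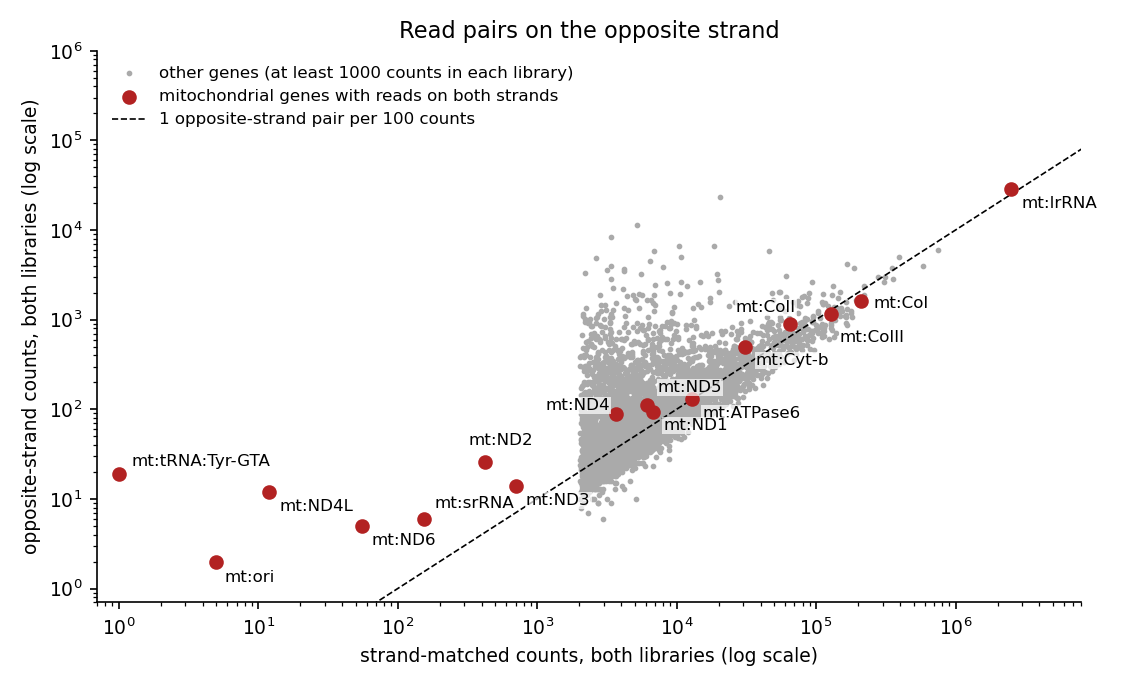
Opposite-strand counts against strand-matched counts, both libraries summed and both axes on a log scale, for mitochondrial genes with reads on both strands and for other genes that reached 1000 counts in each library. mt:lrRNA, mt:CoI and the other abundant members follow the dashed line of 1 pair per 100, and mt:ND4L and mt:tRNA:Tyr-GTA, with few counts, lie well above it.

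Each complex except complex II also has mitochondrial subunits beside nuclear ones, and their RNA levels were set side by side on the TPM scale. Whether poly(A) selection caught mitochondrial and nuclear mRNAs equally well was not tested. For complex IV, the median of the 3 mitochondrial genes was 7313 TPM in replicate 1 and 5420 in replicate 2, and the median of 7 nuclear genes was 209 and 212, with COX7C the lowest of these at 133. The lowest mitochondrial gene, mt:CoII, stood above the highest nuclear one, COX7A, at 420 TPM. For complex III, mt:Cyt-b at 1270 TPM stood above the highest of 4 nuclear genes, UQCR-C1, at 400.4, and the lowest was RFeSP, the iron-sulphur protein, at 107. For complex I the order of the medians was the other way, with 105 and 79.0 TPM for the 7 mitochondrial genes and 180 and 183 for 7 nuclear core subunits, which lay between 132 (ND-20) and 249 (ND-30). By the mean of the libraries, mt:ND1 at 334 TPM was above all of these, mt:ND5 at 166 lay within their span, and mt:ND2, mt:ND3, mt:ND4, mt:ND4L and mt:ND6 were below ND-20, although mt:ND4 at 167 TPM in replicate 1 exceeded ND-20 there (133). For ATP synthase, mt:ATPase6 at 882 TPM lay within the span of 5 nuclear genes, from 242 (ATPsyngamma) to 1437 (blw, the alpha subunit). Succinate dehydrogenase, complex II, is wholly nuclear, and its 4 genes ranged from 104 (SdhA) to 353 (SdhB). The deposited length adds up shared exons once per transcript. This lowers the TPM of nuclear genes with such exons, as at SdhA (8030 bases against 2750), relative to all other genes. At others, such as blw (2252 bases), both lengths are the same. With each exonic base counted once, the medians for complex IV were 4064 TPM for mitochondrial and 341 for nuclear genes, and those for complex I 58.6 and 194, so the order of the medians stayed. Single genes changed places, since mt:ND1 then stood at 213 TPM, below ND-75 (234) and ND-49 (229), and mt:ND5 at 106, below the lowest nuclear gene, ND-23 (150). The complex II genes then ranged from 147 (SdhD) to 226 (SdhB), with SdhA at 193. The lowest nuclear gene of ATP synthase was then ATPsynB (377).

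**Figure D4:**
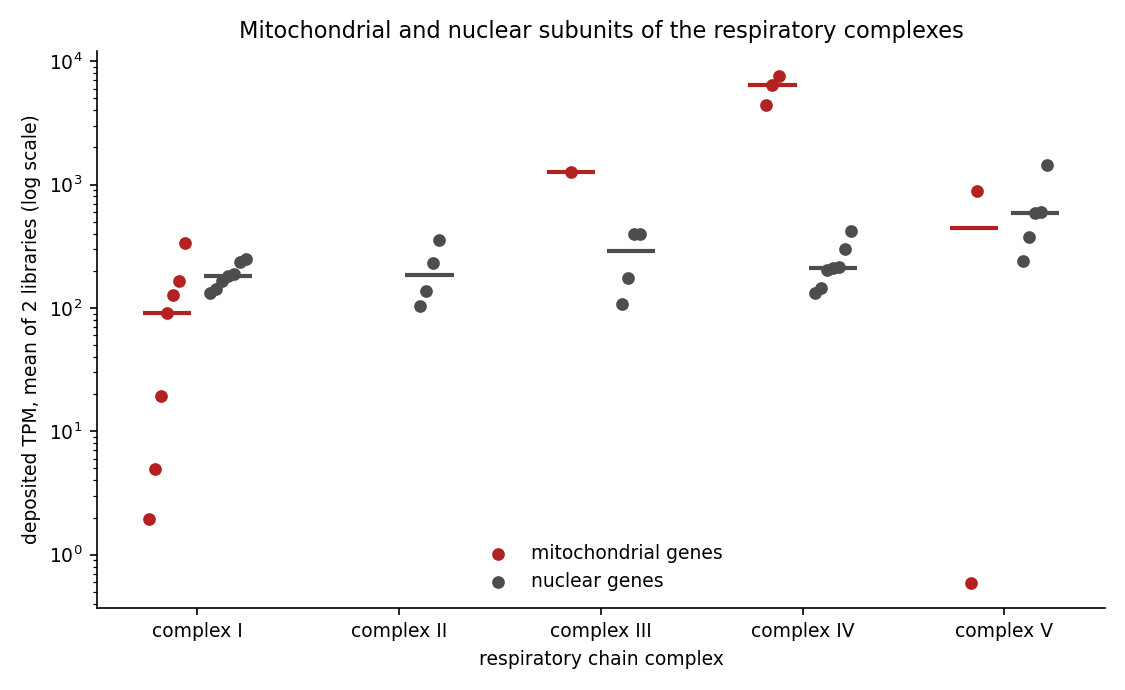
Mean deposited TPM (log scale) of mitochondrial and nuclear subunit genes by respiratory chain complex, 1 point per gene, with a bar at the median of each group. The mitochondrial genes of complex IV stand at a median of 6366 TPM against 211 for the nuclear ones, and those of complex I spread from 1.95 to 334.

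The nuclear genes that transcribe, process and copy the mitochondrial genome were read from a list of 22, with a median of 45.4 TPM. The 3 highest were mtSSB, the single-stranded DNA binding protein of mitochondrial replication, at 399 ± 0.750 TPM (SD, n = 2), bsf, an LRPPRC homolog that stabilises mitochondrial mRNAs, at 234 ± 5.76 (SD, n = 2), and scu, a dehydrogenase that is also part of mitochondrial RNase P, at 196 ± 7.24 (SD, n = 2). With each exonic base counted once, mtSSB stood at 255 TPM, scu at 239 and bsf at 149, so scu and bsf changed places. PolrMT, the mitochondrial RNA polymerase, had 45.5 ± 0.929 TPM (SD, n = 2) and TFAM, which packages the DNA and aids initiation, 105 ± 0.769 (SD, n = 2). The 3 lowest, mtTFB1, SLIRP1 and PolG2, had 0 counts in both libraries. In the annotation, 100% of the exonic bases of each are shared with another gene on the same strand, Ccdc56 for mtTFB1, anox for SLIRP1 and GatC for PolG2. A read pair on any of them was therefore left uncounted, and a level of 0 in the table does not measure these genes. The other 19 had at least 10 counts in each library, from mldr, the catalytic subunit of mitochondrial RNase P, at 10.1 ± 0.458 TPM (SD, n = 2) upwards. The median of the list was 44.8 TPM in replicate 1 and 45.9 in replicate 2, with the 3 unmeasured genes kept in at 0.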

How the data were processed

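Per the paper's methods and the submitters' processing notes, the authors aligned paired-end reads from a stranded poly(A) kit to dm6 with STAR 2.7.1a. They deposited raw counts per gene in 3 strand columns for each library. The deposited table also holds TPM, calculated by the authors from the strand-matched counts and a gene length, and the authors' mean TPM. It has 0 value columns without a sample or group.

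Members were rows whose symbol starts with mt:. They and the gene lists were chosen with earlier results of these data known. All members are accounted for, with values for protein and rRNA genes. Of the nuclear lists, the highest and lowest genes are named, with a few others chosen after their values were seen. Rows that name no gene, 21.6% and 21.0% of read pairs, were left out of library sizes. Pairs placed at several sites were 11.2% and 10.8%, and whether any came from mitochondrial RNA was not tested.

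CPM used total gene counts. TMM (edgeR 4.0.16) and DESeq2 1.42.0 size factors, under R 4.3.3, were alternative scalings. The binomial test (scipy 1.17.1) was tested on simulated data. With 1 condition no differential model was fitted. Exonic lengths came from Ensembl release 115.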

Additional observations from a re-analysis of the deposited data

How the results depend on the processing

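With TMM, DESeq2 size factors or totals without mitochondrial genes, 9 members still differed by at least 25%. The share over all genes with at least 100 counts in total was 1.92% under each. Beyond counting error 11 members differed, against 1.21%, 1.18% and 1.20% of all genes tested, in the same order. At 13 single genes none of the 52 alternative ratios changed direction or side of the threshold. At 1.5-fold on CPM, 1 member remained, mt:ND4, against 0.130% of all genes held to the same minimum. The range of the protein genes was 415-fold with at least 100 counts in each library, since mt:ND6 then drops out, and from 1088-fold to 2258-fold with 1 replicate left out. The ratio of plus-strand to minus-strand medians was 8.28 with lengths shortened by 200 bases, where mt:ATPase8 drops out, and 7.34 at the deposited lengths without mt:ATPase8, which was added after the data were seen. Both keep mt:ND4L, with under 10 counts, among the minus-strand genes. Counting every exonic base a single time, also added then, the nuclear list had a median of 32.8 TPM and the complex IV ratio of mitochondrial to nuclear medians was 11.9 in place of 30.2. No paired analysis was possible because there is only 1 group. With 2 libraries each SD rests on 2 values.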
